A study of Mus musculus with 6 samples.

Results

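The PGC-1 coactivators and the transcription factors they work with were examined in quadriceps muscle after loss of Drp1, the GTPase that divides mitochondria and is encoded by *Dnm1l*. The genes were picked by symbol as *Ppargc1a*, *Ppargc1b*, *Pprc1*, *Nrf1*, *Gabpa*, *Esrra*, *Esrrg*, *Ppara*, *Ppard* and *Nrip1*. All 10 were found among the 27179 genes of the count files, and all 10 passed the filter on low counts that left 16483 genes to test. *Nrip1* encodes RIP140, a corepressor rather than a partner factor, and was read alongside the others as their counterpart. The miDrp1KO group (replicates A, E and F, n = 3 mice) carried floxed *Dnm1l* alleles and HSA-MerCreMer, a tamoxifen-inducible Cre driven by the human *ACTA1* promoter, which is active in skeletal muscle fibres and not in the other cells of the tissue. The control group (replicates B, C and D, n = 3 mice) is labelled f/f, and the methods describe control mice as flox/+ or flox/flox. The line had been backcrossed to C57BL/6J. The methods describe mice kept on normal chow or a high-fat diet and fasted for 6 hours before study. They do not say which diet the sequenced mice ate. Control and knockout mice alike received tamoxifen at 3 months of age, per the methods. It was injected on 4 days with a daily dose of 50 mg/kg. Muscle was taken 3 weeks post–*Dnm1l* deletion. No level or fold change was used to choose the genes, but results of these data were known when they were chosen.

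PGC-1 proteins do not bind DNA themselves. They dock on transcription factors at their target genes and bring in histone acetyltransferases and the Mediator complex, and in skeletal muscle PGC-1α is known for raising mitochondrial gene expression with exercise, fasting and cold. NRF1 and GABP drive genes of the respiratory chain and of mitochondrial DNA maintenance, the oestrogen-related receptors (ERR) drive the citric acid cycle and oxidative phosphorylation, and the PPARs drive fatty acid oxidation, while RIP140 opposes many of these receptors. PGC-1α is also controlled after translation, by phosphorylation, acetylation and turnover, which transcript counts do not measure.

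No gene of the 10 passed the test between miDrp1KO and control muscle. Testing used the quasi-likelihood F test of edgeR, with p-values adjusted by Benjamini-Hochberg over all tested genes and a threshold of 0.05, under which 0.0121% of all tested genes were called. At an unadjusted p under 0.05, again 0 of the 10 were called, against 10.9% of all tested genes, and limma voom also called 0 of the 10. DESeq2 called 0 of the 7 to which its independent filtering left an adjusted p, and *Ppargc1b*, *Pprc1* and *Ppard* had none. In 0 of the 10 did the 3 miDrp1KO libraries all lie above or all below the 3 control libraries, which happened in 18.0% of all tested genes. The fold changes were higher in miDrp1KO muscle for 4 genes and lower for 6, and their median log2 fold change was −0.10, beside 0.017 over all tested genes. A p above the threshold does not show that the levels were equal, and the intervals given below set out what differences these 6 mice leave possible.

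The libraries held 13989588 to 62042255 counts, and ribosomal RNA genes took 1.48 to 24.4% of them, with both ends of that range in the miDrp1KO group. The lowest count of any of the 10 genes in any library was 69, in *Ppard*. As a check of the labels, *Dnm1l* measured 156, 114 and 140 CPM across control B, C and D, and 70.6, 81.3 and 66.2 CPM across miDrp1KO A, E and F. CPM are counts over the library size after edgeR's TMM scaling. *Dnm1l* had a log2 fold change of −0.91 (95% confidence interval −1.31 to −0.51, adjusted p = 0.362 from edgeR and 0.00333 from DESeq2), with no overlap between the groups. Defining markers of skeletal muscle were abundant in every library, the summed fast fibre markers running from 70190 to 161300 CPM. Slow fibre markers were high in control B and in miDrp1KO E and F, and low in the other libraries. *Myh7*, the slow myosin heavy chain, gave 95.7, 2.48 and 13.4 CPM for control B, C, D and 3.89, 174 and 89.6 CPM for miDrp1KO A, E, F. A slow fibre score, the mean log2 CPM of 8 slow markers, was 5.51, 1.94 and 3.19 in control B, C and D and 2.49, 6.39 and 6.30 in miDrp1KO A, E and F. The part that fibre make-up plays in the levels below was not tested beyond a fit with this score as a covariate.

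Promoter sequence was read from RefSeq (GRCm38.p6, the same GRCm38 assembly that the counts were made on), since several of these factors are known to act on each other's genes. The windows were the 250 bases before those annotated starts that had a promoter entry. For *Ppargc1a*, *Ppara*, *Esrra*, *Esrrg* and *Gabpa* they lie wholly or mostly inside the gene spans given below. The bases before the outermost starts of these genes were thus mostly not searched. Of the 10 genes, 9 had at least 1 promoter entry, and the motif letters were searched on both strands in all 32851 entries. The NRF1 motif (GCGC and TGCGC with any base between them), the shorter GCATGCGC that can lie inside it, the ETS motif CCGGAAG bound by GABP and the cyclic AMP response half-site TGACGT each occurred in a promoter window of at least 1 of the 9. The ERR motif CAAGGTCA, the full cyclic AMP element TGACGTCA, which contains the half-site, and the PPAR element (AGGTCA repeated after 1 spacer base) had no match in any window of these 9 genes. The stretches that hold the matches are shown 5′ to 3′ on the gene's strand, with the matched letters in capitals, so that the letters behind each count can be seen.
*Ppargc1a*, chr5:51567727-51567846, minus strand, half-site TGACGT read on the other strand: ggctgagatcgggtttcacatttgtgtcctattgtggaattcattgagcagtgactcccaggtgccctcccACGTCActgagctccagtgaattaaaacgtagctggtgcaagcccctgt
*Ppara*, chr15:85735714-85735775, plus strand, NRF1 motif: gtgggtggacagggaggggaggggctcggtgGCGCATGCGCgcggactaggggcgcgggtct
*Esrra*, chr19:6921814-6921933, minus strand, shorter NRF1 motif: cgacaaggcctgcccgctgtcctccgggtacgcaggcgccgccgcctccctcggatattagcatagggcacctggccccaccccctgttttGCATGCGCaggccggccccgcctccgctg
*Gabpa*, chr16:84835020-84835049, plus strand, ETS motif read on the other strand: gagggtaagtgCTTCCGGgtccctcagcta

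The NRF1 motif of *Ppara* is a palindrome that reads the same on both strands. It lies 31 to 22 bases before an annotated start inside the gene span. Over all promoter entries, 3.74% held the NRF1 motif, 2.26% the shorter form, 6.91% the ETS motif and 6.47% the half-site, so matches of this kind are not rare. A match describes the letters in this window and is not a measured binding site, and no match says nothing about a factor acting elsewhere.

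*Ppargc1a* (Entrez 19017, chromosome 5, 51454249 to 52115853, minus strand) encodes PGC-1α, the coactivator best known in muscle. Its level was 74.8, 38.9 and 59.2 CPM across control B, C and D, and 57.0, 96.8 and 51.5 CPM across miDrp1KO A, E and F. The highest library of all was miDrp1KO E and the lowest was control C, and the groups overlapped throughout. Control muscle averaged 57.7 ± 18.0 CPM and miDrp1KO muscle 68.4 ± 24.7 CPM (SD, n = 3 each), with p = 0.7 in a two-sided exact permutation test. Splits of 3 against 3 mice cannot give a p below 0.1 in this test. The log2 fold change was 0.25 (standard error 0.30, edgeR adjusted p = 0.797), and the 95% confidence interval runs from 0.744-fold to 1.89-fold of the control level. Without miDrp1KO replicate E the log2 fold change was −0.093, so the direction of the difference rests on that library.

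*Ppargc1b* (Entrez 170826, chromosome 18, 61291445 to 61400756), encoding the related coactivator PGC-1β, was less abundant. It had 13.1, 6.70 and 10.9 CPM (control B, C and D) against 8.46, 13.3 and 5.85 CPM (miDrp1KO A, E and F). The order within the control group, with B highest and C lowest, was that of *Ppargc1a*, as was the place of E at the top of the miDrp1KO group. For *Ppargc1b* the log2 fold change was −0.15 (95% confidence interval −0.90 to 0.60, edgeR adjusted p = 0.898) and turned positive without control B (0.077) or without miDrp1KO F (0.11). *Pprc1* (Entrez 226169, chromosome 19, 46056526 to 46072909) encodes PRC, the family member tied to growth signals rather than to fasting. Its levels were 7.86, 9.11 and 5.81 CPM across control B, C and D, and 6.90, 7.13 and 6.91 CPM across miDrp1KO A, E and F. The miDrp1KO values all fell inside the control range and differed little from each other. The log2 fold change of *Pprc1* was −0.11 (95% confidence interval −0.56 to 0.35, edgeR adjusted p = 0.882), and 0.020 without control C.

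*Nrip1* (Entrez 268903, chromosome 16, 76287403 to 76373827) had the lowest p of the 10 genes. It measured 33.9, 48.5 and 37.4 CPM across control B, C and D, and 42.7, 21.3 and 15.5 CPM across miDrp1KO A, E and F. E and F were the lowest of the 6 libraries, while A lay inside the control range. Control muscle averaged 40.0 ± 7.63 CPM and miDrp1KO muscle 26.5 ± 14.3 CPM (SD, n = 3 each), and p was 0.3 in the exact permutation test. For *Nrip1* the log2 fold change was −0.59 (standard error 0.37, 95% confidence interval −1.46 to 0.28, edgeR unadjusted p = 0.151, adjusted p = 0.594). Without miDrp1KO A it was −1.09, with an edgeR unadjusted p of 4.71e-04 and an adjusted p of 0.0672, and it was negative in all 14 alternatives run, between −1.09 and −0.31. A differs from E and F in its slow fibre score as well, and the *Nrip1* levels ran nearly opposite to that score, from control C, which had the highest *Nrip1* and the lowest score, to E and F. With that score in the fit the log2 fold change of *Nrip1* was −0.33 (edgeR adjusted p = 0.604).

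Set against each other per kilobase of exon, *Ppargc1a* exceeded *Nrip1* 3.83-fold, 1.39-fold and 2.75-fold in control B, C and D and 2.32-fold, 7.91-fold and 5.77-fold in miDrp1KO A, E and F. This ratio of coactivator to corepressor transcripts was highest in E and F, and A again lay among the controls, so the groups overlapped here too.

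**Figure D1:**
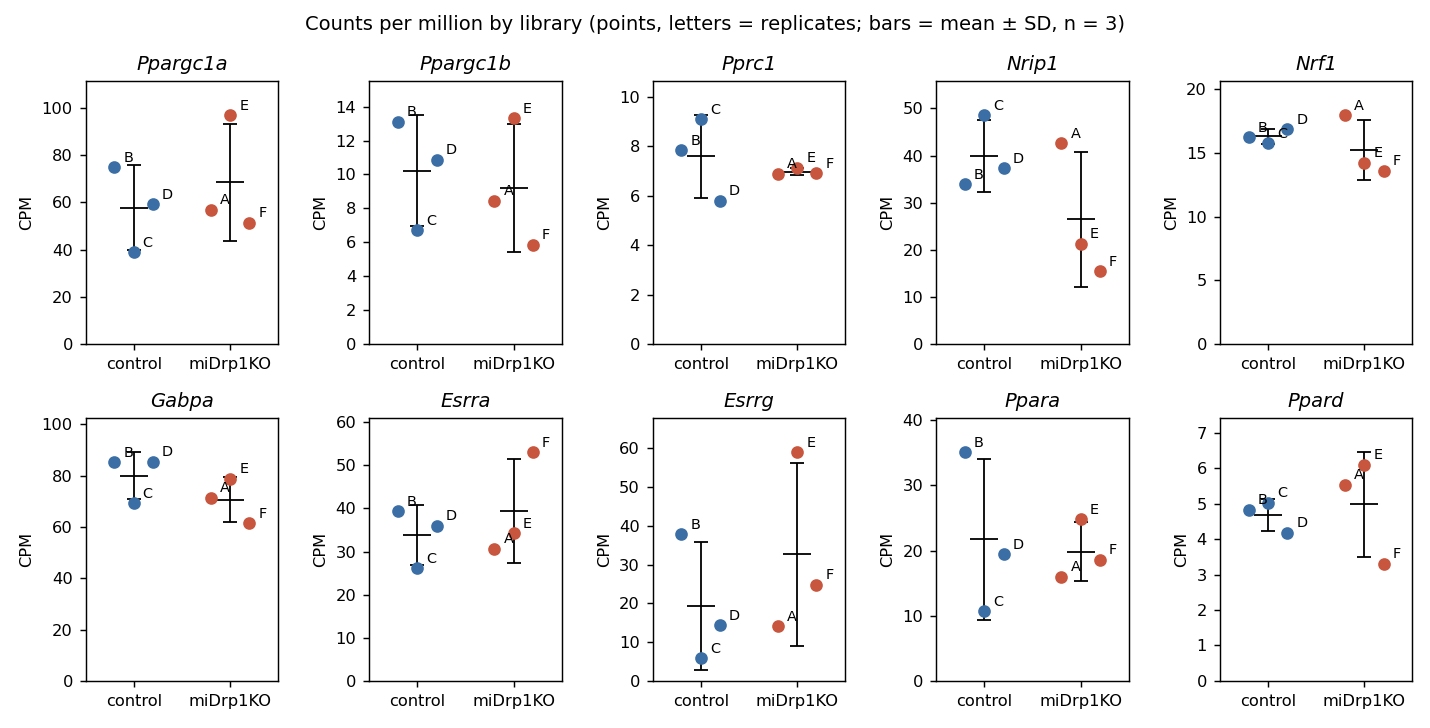
Levels of the 10 genes in CPM (linear axes from 0) in each control (blue) and miDrp1KO (red) library. Letters name the replicates and black bars give the mean ± SD of 3 mice. In every panel the groups overlap, and for *Nrip1* replicates E and F lie below the others while A does not.

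The nuclear respiratory factors varied least. *Nrf1* (Entrez 18181, chromosome 6, 30047985 to 30153458) gave 16.2, 15.7 and 16.9 CPM for control B, C, D and 17.9, 14.2 and 13.6 CPM for miDrp1KO A, E, F, its highest library being 1.32 times its lowest. E and F were again the lowest libraries and A the highest. For *Nrf1* the log2 fold change was −0.10 (95% confidence interval −0.46 to 0.27, edgeR adjusted p = 0.863), an interval from 0.726-fold to 1.20-fold. *Gabpa* (Entrez 14390, chromosome 16, 84834891 to 84863783) encodes the DNA-binding subunit of GABP, also named NRF2. Its levels were 85.1, 69.3 and 85.4 CPM across control B, C and D, and 71.4, 78.8 and 61.4 CPM across miDrp1KO A, E and F. Two-sided exact permutation gave p = 0.3 for *Gabpa*, and the log2 fold change was −0.18 (95% confidence interval −0.56 to 0.20, edgeR adjusted p = 0.733). *Nrf1*, *Gabpa*, *Nrip1* and *Esrrg* kept the sign of their fold change in all 14 alternatives, although their size moved, from −0.0022 (without miDrp1KO F) to −0.21 (without miDrp1KO A) for *Nrf1* and from −0.069 (without miDrp1KO F) to −0.29 (without control C) for *Gabpa*. The other 6 genes each changed sign when 1 library was left out.

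Of the ERR genes, *Esrra* (Entrez 26379, chromosome 19, 6910977 to 6922048) encodes ERRα, a direct partner and target of PGC-1α. It had 39.3, 26.1 and 36.0 CPM (control B, C and D) against 30.7, 34.3 and 53.1 CPM (miDrp1KO A, E and F). F was the highest of all libraries and the rest of the miDrp1KO group lay inside the control range. For *Esrra* the log2 fold change was 0.22 (95% confidence interval −0.29 to 0.73, edgeR adjusted p = 0.768) and −0.038 without F. *Esrrg* (Entrez 26381, chromosome 1, 187608510 to 188214885) encodes ERRγ, which is known for its high level in oxidative and slow fibres. It varied most of the 10 genes, with 37.8, 5.83 and 14.3 CPM across control B, C and D, and 14.0, 59.0 and 24.8 CPM across miDrp1KO A, E and F, its highest library being 10.1 times its lowest. The libraries with most *Esrrg* were E, B and F, which also had the highest slow fibre scores. The log2 fold change of *Esrrg* was 0.76 (standard error 0.91, edgeR adjusted p = 0.805), and the 95% confidence interval runs from 0.315-fold to 9.06-fold of the control level. With the slow fibre score in the fit it was 0.12 (edgeR adjusted p = 0.945), and with 1 library left out it ran from 0.0037 without miDrp1KO E to 1.69 without control B. Per kilobase of exon, *Esrrg* was 0.158 to 0.679 of *Esrra* in the control libraries and 0.324 to 1.22 in the miDrp1KO libraries, where only E had more *Esrrg* than *Esrra*.

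*Ppara* (Entrez 19013, chromosome 15, 85734910 to 85806851), encoding the fatty acid receptor PPARα, measured 35.1, 10.7 and 19.5 CPM across control B, C and D, and 16.0, 24.8 and 18.6 CPM across miDrp1KO A, E and F. The 3 control libraries were more spread out than the 3 miDrp1KO libraries and enclosed them. *Ppara* had a log2 fold change of −0.14 (95% confidence interval −1.16 to 0.89, edgeR adjusted p = 0.935). It was 0.018 without miDrp1KO A and 0.40 without control B. *Ppard* (Entrez 19015, chromosome 17, 28232754 to 28301469) encodes PPARδ, a receptor of the same family that is widely expressed. Its levels were 4.83, 5.03 and 4.18 CPM across control B, C and D, and 5.54, 6.10 and 3.31 CPM across miDrp1KO A, E and F, so both the highest and the lowest library were miDrp1KO. *Ppard* had a log2 fold change of 0.11 (95% confidence interval −0.45 to 0.67, edgeR adjusted p = 0.910), and −0.077 without E.

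With the slow fibre score in the fit, no gene of the 10 was called either, but several fold changes moved. On the log2 scale *Ppargc1a* went from 0.25 to 0.037, *Esrra* from 0.22 to 0.0048 and *Nrf1* from −0.097 to −0.024, while *Ppara* went from −0.14 to −0.40 and *Ppargc1b* from −0.15 to −0.32.

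**Figure D2:**
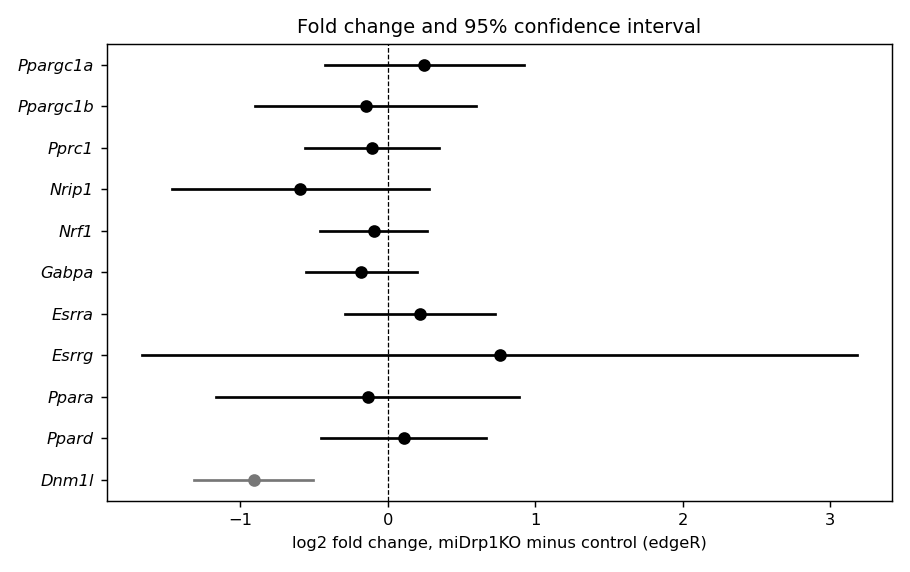
Log2 fold change of each gene, miDrp1KO minus control, from edgeR (points) with its 95% confidence interval (lines), and *Dnm1l* in grey for comparison. All 10 intervals cross 0, with the narrowest for *Nrf1* and the widest for *Esrrg*, while that of *Dnm1l* lies between −1.31 and −0.51.

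Levels were ordered among the 10 genes only per length, as CPM per kilobase of the gene's merged exons. In control muscle *Gabpa* came first at 14.1 ± 1.62 CPM per kilobase (SD, n = 3), followed by *Ppargc1a* at 8.75 ± 2.73 and *Esrra* at 7.71 ± 1.57. *Ppara* (5.67 ± 3.23), *Nrip1* (3.49 ± 0.666), *Esrrg* (3.11 ± 2.67) and *Ppargc1b* (2.57 ± 0.816) came next, in the same unit. *Nrf1* (1.58 ± 0.0543), *Pprc1* (1.21 ± 0.265) and *Ppard* (0.623 ± 0.0590) were lowest. From *Ppargc1a* down to *Ppargc1b*, the range of the 3 control libraries of each gene overlapped that of the next in the order, so no neighbours among these 6 were separated by their spread. The range of *Gabpa* lay above those of the other genes and that of *Ppard* below them. *Nrf1* and *Pprc1* did not overlap their neighbours in the order, but *Esrrg*, at 0.939 to 6.09 CPM per kilobase, overlapped both. Exons of *Gabpa* share 397 bases with *Atp5j* on the opposite strand, those of *Pprc1* 177 bases with *Ldb1* and those of *Esrra* 73 bases with *Trmt112*. Whether the counting used strand is not given in the sources used here, so reads there cannot be told apart between the genes of each pair.

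The spread inside the control group had a shared shape. *Ppargc1a*, *Ppargc1b*, *Esrra*, *Esrrg* and *Ppara* were all highest in control B, intermediate in D and lowest in C, an order seen in 24.0% of all tested genes. The same order was found in 25 of 27 tested ERR target genes, in 24 of 28 PPAR target genes and in 17 of 27 NRF1 and GABP target genes. On the 2 lists that are not target genes, the order was found in 6 of 22 other partners and cofactors and in 4 of 33 upstream regulators of PGC-1α. It was counted after the values were seen and is given without a test. The ERR target list averaged 0.48, −0.35 and 0.12 in control B, C and D and −0.33, −0.05 and 0.13 in miDrp1KO A, E and F, as log2 CPM centred on each gene's mean over the 6 libraries. The PPAR target list averaged 0.52, −0.50 and 0.02 in control B, C and D and −0.33, 0.17 and 0.12 in miDrp1KO A, E and F. Control mice thus lay further apart on both lists than the group means did. The slow fibre score was also highest in B and lowest in C among the controls, as were the summed endothelial markers, at 255, 143 and 197 CPM in B, C and D. Their part in the order was not tested.

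The genes whose pattern over the 6 libraries lay nearest to that of *Ppargc1a*, by the root mean square difference of centred log2 CPM among 13559 genes with at least 1 CPM on average, were *Bag3*, *Myo1d* and *Itga8*. Their differences were 0.0754, 0.0853 and 0.0957. *Bag3*, a co-chaperone of contracting muscle, gave 93.2, 45.2 and 78.0 CPM for control B, C, D and 67.2, 113 and 57.9 CPM for miDrp1KO A, E, F. Of the other 9 genes, *Ppargc1b* was nearest to *Ppargc1a* (difference 0.240, rank 228) and *Nrip1* farthest (0.832, rank 12846). These likenesses rest on 6 libraries and are a description.

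**Figure D3:**
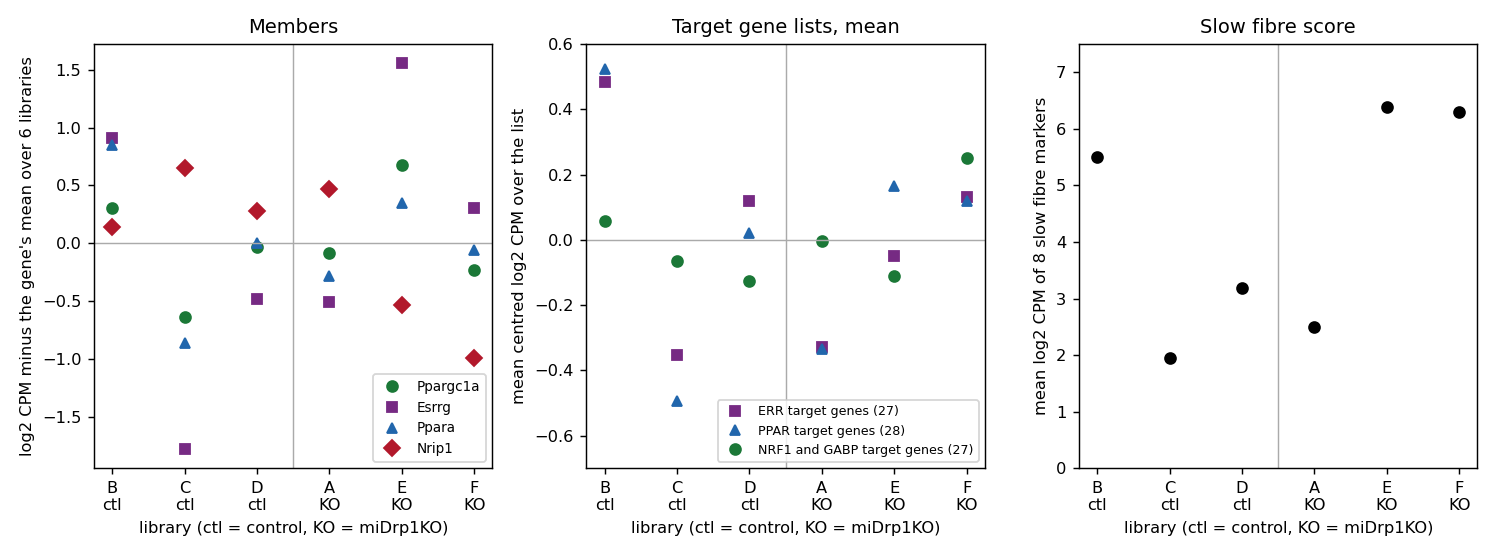
Library by library pattern of 4 of the genes (left, log2 CPM minus the gene's mean), of the mean of 3 target gene lists (middle, centred log2 CPM, number of genes in brackets) and of the slow fibre score (right, mean log2 CPM of 8 markers). *Ppargc1a*, *Esrrg*, *Ppara* and the ERR and PPAR target genes are high in control B and low in control C, and the slow fibre score is high in B, E and F.

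The wider pathway was read from 5 lists of genes written from general knowledge, with earlier results of these data known. None of the 137 distinct tested genes on them had an edgeR adjusted p under 0.05, against 21 at an unadjusted p under 0.05, of which 1 was higher and 20 lower. DESeq2 called 2, *Camk2b* and *Mfn2*, both lower. Genes named from these lists come from the 3 with the lowest p of each list, and so were picked by p. Over all tested genes, 4.68% were higher and 6.22% lower at an unadjusted p under 0.05, and 7.67% lay wholly above and 10.3% wholly below the controls.

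Among other partners and cofactors, which include the RXR receptors, acetyltransferases and corepressors, 18 of 22 were lower in miDrp1KO muscle, 5 of them at an unadjusted p under 0.05 and 8 with no overlap between the groups, and the median log2 fold change was −0.19 (−0.080 without miDrp1KO F, −0.29 without miDrp1KO E and −0.10 with upper quartile normalization). *Pparg*, the PPAR of fat cells, had 5.54, 9.26 and 7.95 CPM (control B, C and D) against 4.57, 4.29 and 5.28 CPM (miDrp1KO A, E and F) (log2 fold change −0.68, edgeR adjusted p = 0.382). *Rxra*, the partner with which PPARs bind DNA, had a log2 fold change of −0.55, and *Kat2b*, an acetyltransferase, of −0.42. Summed adipocyte markers ran from 431 to 694 CPM in the control libraries and from 285 to 410 CPM in the miDrp1KO libraries. Of these 8 markers, none was at 0, 3 did not overlap between the groups, all lower, and 4 had an unadjusted p under 0.05. In bulk muscle, fewer cells of a type and less RNA per cell cannot be told apart, and the part of adipocytes in these levels was not tested.

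Of the 33 upstream regulators of PGC-1α, kinases, phosphatases, deacetylases and factors known to act on its gene or protein, 28 were lower and 5 higher in miDrp1KO muscle, the median log2 fold change being −0.21 (−0.34 without miDrp1KO A and −0.13 with upper quartile normalization, 25 of 33 then being lower). At an unadjusted p under 0.05, 7 were lower and 0 higher, and 8 lay wholly below the controls. *Camk2b*, a subunit of the calcium-activated kinase CaMKII, measured 82.0, 78.6 and 85.1 CPM across control B, C and D, and 53.9, 40.1 and 44.4 CPM across miDrp1KO A, E and F. The miDrp1KO libraries all lay below the controls, by −0.83 on the log2 scale (standard error 0.17), with an adjusted p of 0.362 from edgeR and 0.00869 from DESeq2. *Mapk14*, encoding p38α, a kinase that activates PGC-1α, had a log2 fold change of −0.62, with 75.2 to 86.2 CPM in control and 45.4 to 64.4 CPM in miDrp1KO muscle. *Hdac4*, a deacetylase that represses MEF2 factors, had a log2 fold change of −0.78 and an edgeR adjusted p of 0.379, as did *Mapk14*. The sum of 9 fast fibre markers was also lower, 142600 to 161300 CPM in control and 70190 to 123300 CPM in miDrp1KO muscle, with 3 of the 9 not overlapping and 2 at an unadjusted p under 0.05. The part of these markers in the regulators' levels was not tested.

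Of the 3 target lists, the ERR list kept the sign of its median in all 14 alternatives, and the other lists did not. Of the NRF1 and GABP targets, 18 of 27 were higher (median log2 fold change 0.14), but 13 of 27 without miDrp1KO F (median −0.054). Of the ERR targets, 20 of 27 were lower (median −0.28), and 17 of 27 without control B (median −0.089) or 23 of 27 without control C (median −0.43). Of the PPAR targets, 16 of 28 were lower (median −0.025), against 4 of 28 without control B (median 0.21) and 25 of 28 without control C (median −0.31). The sign of their median also turned without miDrp1KO A (0.083), with upper quartile normalization (0.065), with at least 10 counts in every library (0.019) and with the ribosomal RNA genes left out (0.019). Over all tested genes the median, 0.017 in the main fit, was 0.064, 0.11, 0.015 and 0.054 in those fits, in that order. The PPAR median lay below it with upper quartile normalization and with the ribosomal RNA genes left out. With the slow fibre score in the fit, 27 of 28 PPAR targets were lower (median −0.33) and 24 of 27 ERR targets (median −0.41), and the median of the NRF1 and GABP targets was 0.028. *Cox6c*, a subunit of cytochrome c oxidase, gave 365, 274 and 320 CPM for control B, C, D and 412, 570 and 597 CPM for miDrp1KO A, E, F, and had the lowest p of the NRF1 and GABP targets (log2 fold change 0.72, edgeR adjusted p = 0.379). On the same list *Twnk*, the mitochondrial DNA helicase, and *Alas1*, the first enzyme of haem synthesis, had log2 fold changes of −0.63 each, and that of *Alas1* was −0.29 without control B. *Tfam*, the packaging factor of mitochondrial DNA named here for its place in the pathway after its values were seen, averaged 42.8 ± 1.09 CPM in control muscle and 42.9 ± 1.95 CPM in miDrp1KO muscle (SD, n = 3 each).

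*Mfn2*, which fuses mitochondria and so acts opposite to Drp1, had the lowest p of the ERR targets. It had 327, 176 and 235 CPM (control B, C and D) against 121, 138 and 130 CPM (miDrp1KO A, E and F). The miDrp1KO libraries lay close together below all controls, and the difference was −0.92 on the log2 scale (standard error 0.23), with an adjusted p of 0.362 from edgeR and 0.0164 from DESeq2. Its size leaned on the control libraries, being −0.64 without control B and −1.14 without control C. *Ogdh* and *Pdha1*, subunits of the 2-oxoglutarate and pyruvate dehydrogenases, had log2 fold changes of −0.62 and −0.47, and that of *Ogdh* was −0.37 without control B. Of the PPAR targets, *Plin2*, which coats lipid droplets, had a log2 fold change of −0.52 and *Ucp3*, a carrier of the inner mitochondrial membrane, of −0.64, and both lay wholly below the controls.

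**Figure D4:**
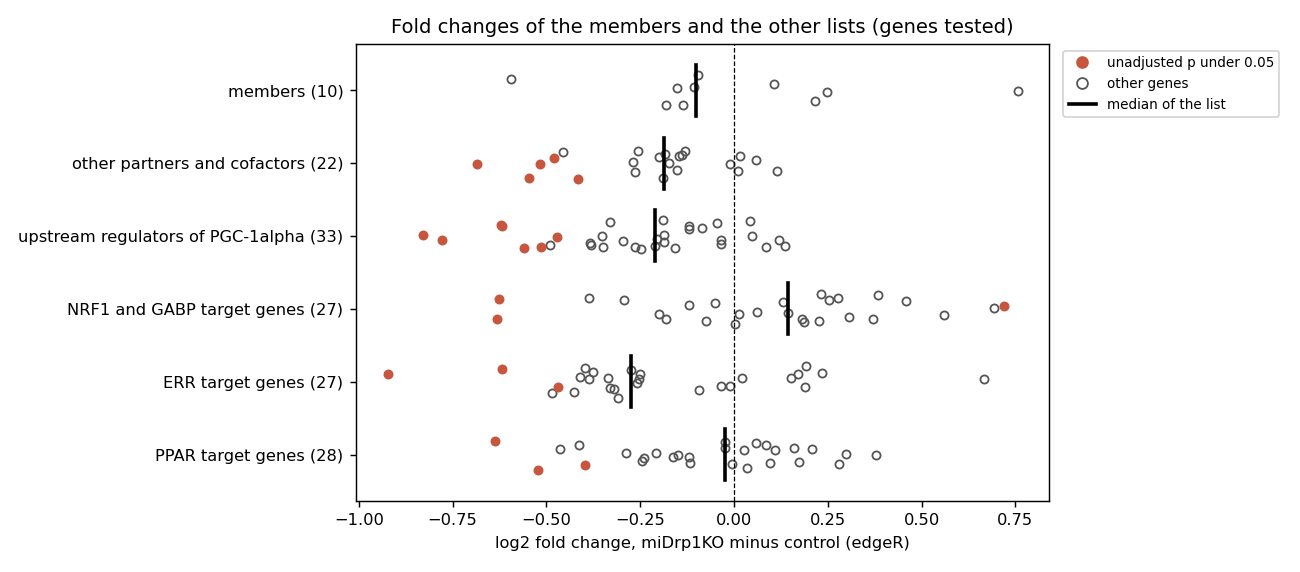
Log2 fold changes (miDrp1KO minus control, edgeR) of the 10 genes and of the tested genes of each list, 1 point per gene, with the median of each list as a black bar and genes at an unadjusted p under 0.05 in red. The 10 genes have no red point, and the medians run from −0.28 for ERR targets to 0.14 for NRF1 and GABP targets, which was −0.054 without miDrp1KO F.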

How the data were processed

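The authors deposited raw gene counts, 1 file per library, as whole numbers without normalization. Per the methods, total RNA with a RIN above 7 was depleted of ribosomal RNA, made into stranded libraries, sequenced in pools, and both aligned (GRCm38) and counted by Rsubread. The submitters' processing notes name FastQC and DESeq2 1.30.0. Which library was in which pool and whether counting used strand are not given in the sources used here.

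The 10 genes, the other gene lists and the marker lists were chosen with earlier results of these data known. Counts were fitted for all genes in R 4.3.3 with edgeR 4.0.16 (TMM, filterByExpr, robust quasi-likelihood fit; Benjamini-Hochberg over the 16483 tested genes). Standard errors are the fold change over the root of the F statistic, and 95% intervals use its degrees of freedom. Single genes were also compared by exact permutation over the 6 mice. Exon length is that of GENCODE M21 merged exons, and positions and promoters are RefSeq's on GRCm38.p6. The genes named were all 10, *Dnm1l*, the 3 with the lowest p of each other list and the 3 nearest in pattern to *Ppargc1a*. *Tfam* and the marker *Myh7* fall outside this rule and were named after their values were seen. The result of 1 gene so chosen is not reported here. The alternatives were DESeq2 1.42.0, limma voom (limma 3.58.1), RLE and upper quartile normalization, no filter, at least 10 counts in every library, 31 ribosomal RNA genes and *Lars2* left out, an unadjusted threshold and each library left out. A fit that includes the slow fibre score was added after the data were seen.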

Additional observations from a re-analysis of the deposited data

How the results depend on the processing

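The count of the 10 genes called was 0 under every alternative run, with 3 of them given no adjusted p by DESeq2. Over all tested genes edgeR called 2, against 82 with DESeq2 (14 higher, 68 lower), 8 without the filter on low counts, 4 when the slow fibre score was in the fit and 1796 at an unadjusted p under 0.05. Leaving out 1 library moved this count between 1 (without miDrp1KO E or F) and 7 (without miDrp1KO A). Among the other list genes 0 were called, against 2 with DESeq2 and 21 at an unadjusted p. The median log2 fold change of the 10 genes ran from −0.11 to 0.11 when 1 library was left out, and reversed to 0.11 without control B. The reversed log2 fold changes were those of *Ppara* (0.018 without miDrp1KO A, 0.40 without control B), *Ppargc1b* (0.077 without control B, 0.11 without miDrp1KO F), *Pprc1* (0.020 without control C), *Ppargc1a* (−0.093) and *Ppard* (−0.077) without miDrp1KO E, and *Esrra* (−0.038) without miDrp1KO F. With 1 library left out, the log2 fold change ran from −0.093 to 0.50 for *Ppargc1a*, −0.53 to 0.11 for *Ppargc1b*, −0.26 to 0.020 for *Pprc1*, −0.038 to 0.39 for *Esrra*, −0.47 to 0.40 for *Ppara*, −0.077 to 0.35 for *Ppard*, 0.0037 to 1.69 for *Esrrg*, −1.09 to −0.31 for *Nrip1*, −0.29 to −0.069 for *Gabpa* and −0.21 to −0.0022 for *Nrf1*. The cause was not tested. No paired analysis was possible because the library letters are not shared between the groups. With 3 mice a group and a biological coefficient of variation of 0.252, small changes in these genes could not be shown, and transcript counts do not give protein levels.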
